A study of Mus musculus with 2 samples.

Results

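Interferon-responding regulatory T cells (Tregs) of the pancreatic islets were chosen by 3 interferon-stimulated genes. From the unique molecular identifiers (UMIs, counted RNA molecules) of each cell, a Treg was a cell with no Cd8a or Cd8b1 UMI, at least 1 UMI of Cd4, Foxp3, Il2ra and Ikzf2 together and at least 3 of the CD3 genes. A Treg entered the interferon gate with at least 2 UMIs of Isg15, Ifit1 and Ifit3 together and fewer than 3 of each of 3 other gene sets. These sets marked suppressive cells (Lag3, Itgae, Il10, Cxcr6), recently activated cells (Xcl1, Cd83, Nrn1, Tbc1d4) and dividing cells (Mki67, Top2a, Birc5, Ube2c, Cdk1). The gate held 103 of 2915 Tregs, and the files hold 5795 cells in all. Of the gate cells, 62 came from the wild-type library and 41 from the knockout library. Since Isg15, Ifit1 and Ifit3 chose these cells, their levels in the gate are given as a description and support nothing.

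The wild-type library was made from NOD.Foxp3-EGFP mice and the knockout library from NOD.Tnfrsf9-/-.Foxp3-EGFP mice. NOD mice develop autoimmune diabetes without treatment, the reporter marks Foxp3-expressing cells with GFP, and the knockout lacks CD137 (Tnfrsf9) in the whole body. Each library pooled the islets of 6 females aged 9 to 10 weeks, from which GFP+ CD4 Tregs and CD8 T cells were sorted and run together on the Chromium 3' v2 assay. With 1 library per genotype no difference between genotypes can be tested, and genotype, pool and library cannot be told apart. Intervals below are 95% intervals for counting error only. Levels are in CPM, a gene's share of all UMIs of a class scaled to one common total, and every difference in level is a log2 ratio of CPM. Unless a sentence says otherwise, pairs of values give the wild type first and the knockout second, and a count of genes past 2-fold describes size and is no test.

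Type I interferons (the IFN-alpha family and IFN-beta) bind the receptor IFNAR1/IFNAR2, whose kinases JAK1 and TYK2 activate transcription factors, among them STAT2 with IRF9. These bind interferon-stimulated response elements in promoters and start transcription of interferon-stimulated genes. Their products inhibit viruses, sense nucleic acids, and feed back: IRF7 raises further interferon production, while USP18 and SOCS1 dampen receptor signalling. CD137 is a costimulatory receptor of the TNF receptor family that activated T cells and many Tregs carry.

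Promoters of the 3 genes of the rule are shown first, because they carry the response element, together with that of Ddx60, a sensor helicase outside the rule, as an example that holds it. Capitals mark every match to the core of the element, GAAA followed by any 2 bases and again GAAA, searched on both strands with overlaps allowed. The Isg15 promoter is chr4:156200819-156201068 on the minus strand, and the others lie on the plus strand, Ifit3 at chr19:34583279-34583528, Ifit1 at chr19:34640639-34640888 and Ddx60 at chr8:61927837-61928086. Each run is the 250 bases before the start site, 5′ to 3′ along the gene, from RefSeq on GRCm38.p6. The matches are 3 overlapping copies in Isg15, the first beginning 78 bases before the start, and 2 copies each in Ifit3, Ifit1 and Ddx60. Those of Ifit3 and Ifit1 read on the opposite strand.
Isg15: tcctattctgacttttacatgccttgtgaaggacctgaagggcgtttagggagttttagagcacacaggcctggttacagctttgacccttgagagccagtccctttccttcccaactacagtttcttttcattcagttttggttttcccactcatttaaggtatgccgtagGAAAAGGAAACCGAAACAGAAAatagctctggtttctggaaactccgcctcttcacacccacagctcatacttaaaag
Ifit3: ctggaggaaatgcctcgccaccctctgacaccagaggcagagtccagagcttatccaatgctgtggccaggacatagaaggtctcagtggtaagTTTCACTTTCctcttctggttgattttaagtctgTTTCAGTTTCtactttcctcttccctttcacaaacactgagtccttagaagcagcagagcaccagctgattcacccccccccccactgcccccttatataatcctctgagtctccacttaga
Ifit1: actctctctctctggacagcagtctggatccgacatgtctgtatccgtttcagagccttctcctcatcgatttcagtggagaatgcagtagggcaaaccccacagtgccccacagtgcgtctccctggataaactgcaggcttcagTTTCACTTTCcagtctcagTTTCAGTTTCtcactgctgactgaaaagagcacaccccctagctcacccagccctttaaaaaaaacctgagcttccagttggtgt
Ddx60: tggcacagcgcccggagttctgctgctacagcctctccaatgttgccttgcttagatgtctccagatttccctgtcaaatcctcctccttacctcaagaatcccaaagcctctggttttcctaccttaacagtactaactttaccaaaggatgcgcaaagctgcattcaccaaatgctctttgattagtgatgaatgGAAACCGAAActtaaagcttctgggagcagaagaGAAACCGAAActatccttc

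The same letters were in the window from 250 bases before to 50 after the start of 1079 of 27025 genes (3.99%). Among genes compared between the gate and the other Tregs that had an entry, 262 of 6768 held them (3.87%). Genes outside the rule that were at least 2-fold higher in the gate in both libraries held them in 23 of 69 cases (33.3%), and genes at least 2-fold lower in 6 of 147 (4.08%). All 10 guanylate-binding and immunity-related GTPase genes with an entry held a match, as did 6 of 8 HIN200 genes (cytosolic DNA sensors and their relatives). A match was in 7 of 10 IFIT and OAS genes, 4 of 6 nucleic acid sensors and 9 of 20 other antiviral effectors. Shares were lower in the remaining lists, at 1 of 4 in ISG15 conjugation, 1 of 3 in the PARP group, 2 of 7 interferon transcription factors, 4 of 15 MHC class I genes and 0 of 2 Ly6 genes. Of genes far above the other Tregs, Slfn5 and Ifih1 held 1 match each and Rnf213 and Xaf1 0. Irf7 had no match in this window, and Rtp4, Usp18 and Zbp1 had no entry. A match is a stretch of letters and not a measured binding site.

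The libraries held 2804 wild-type and 2991 knockout cells, with 19904506 and 19639995 UMIs and medians of 5075.5 and 4935 UMIs per cell. Limits of 200 to 5000 genes and at most 20% mitochondrial UMIs kept 2714 and 2915 cells, of which 1514 and 1401 were Tregs and 949 and 1259 CD8 T cells. Gate cells had median depths of 4224 and 3615 UMIs, against 4404.5 and 4430 in the other Tregs. The libraries shared 16 barcodes, 0 of them in the gate. The knocked-out gene was lower in the knockout gate cells, with 49 UMIs against 14 (176 and 76.6 CPM, log2 ratio -1.20, interval -2.17 to -0.32). By cells the gap was within counting error, as 20 of 62 and 9 of 41 gate cells had a UMI (-10.3 points, -26.2 to 7.69), or 21.3% and 19.5% with every cell thinned at random to 2000 UMIs. The log2 ratio was -0.68 (-1.90 to 0.43) with thinned cells, -0.52 with equal weight per cell and -0.0025 with the exclusions set at 2 UMIs. Its log2 ratio was -1.63 in the other Tregs and -1.63 in CD8 T cells. Which part of Tnfrsf9 (chromosome 4, 150914562 to 150946102, GRCm38) the allele removes is not given in the sources used here, and 3' reads may lie outside that part.

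Foxp3, Il2ra, Ikzf2 and Cd4 defined a Treg in the rule, so their presence is given as a description. Ikzf2, the transcription factor Helios, had a UMI in 54 of 62 wild-type and 37 of 41 knockout gate cells, and Il2ra, a subunit of the IL-2 receptor, in 22 and 18. Foxp3, the factor that defines the lineage, was sparse, with 11 UMIs in each library, at 39.5 and 60.1 CPM in the gate and 25.7 and 40.7 in the other Tregs. The 4 Treg identity genes outside the rule had median log2 ratios of -0.51 and -0.11 against all other Tregs and 0.00 and 0.34 against rule-negative Tregs (those that met the same exclusions and had no UMI of Isg15, Ifit1 and Ifit3), with 0 past 2-fold in both libraries. Interferon markers that the rule did not use were also found more often in the gate. Usp18, the protease that removes ISG15 from proteins and restrains the interferon receptor, had a UMI in 20 of 62 and 12 of 41 gate cells, against 6.47% and 3.97% of the other Tregs. Rtp4, an interferon-induced chaperone and antiviral factor, had one in 59.7% and 48.8% of gate cells, and the other Tregs had one in 271 of 1452 and 204 of 1360 cells. With every cell thinned to 2000 UMIs the Rtp4 shares were 34.4% and 31.7% in the gate and 10.1% and 7.62% in the other Tregs.

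Most defining markers of other cells were at or near 0 in the gate. Lyz2, Cd68, Csf1r and Fcer1g (myeloid), Siglech (plasmacytoid dendritic cells) and Ncr1 and Klrb1c (NK cells) had no UMI in either library. The 4 B cell markers had 2 and 0 UMIs, the 7 acinar genes 7 and 10, and the 7 endocrine genes 4 and 22. Of the latter, 8 Ins1 and 8 Ins2 UMIs each came from a single cell. Ccr9, which is on the plasmacytoid list but which T cells also carry, had 0 and 11 UMIs, all 11 in 1 cell. Of the CD8 T cell list Cd8a and Cd8b1 were at 0 by the rule, Gzmk had 2 and 0 UMIs and Nkg7 37 and 4. Cst3 (66 and 37 UMIs), Bst2 and Pecam1, which stand on lists of other cells but which T cells also express, were present. Pecam1 had log2 ratios of 1.48 and 1.13 against all other Tregs and 0.24 and 0.12 against rule-negative Tregs.

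With wild-type CD137 the gate took 4.10% of Tregs (interval 3.15 to 5.22), and without it 2.93% (2.11 to 3.95). Knockout minus wild type, this was -1.17 percentage points with an interval of -2.52 to 0.183, which includes 0. The share depended on the exclusions. More knockout Tregs met them, 691 (49.3%) against 597 (39.4%), a difference of 9.89 points (6.28 to 13.5), and the suppressive genes alone removed 37.7% of knockout and 49.5% of wild-type Tregs. Of the Tregs that met the exclusions, 10.4% (8.06 to 13.1) of wild-type and 5.93% (4.29 to 7.96) of knockout cells were in the gate, a difference of -4.45 points (-7.56 to -1.47). Without any exclusion, 156 wild-type Tregs (10.3%) and 102 knockout Tregs (7.28%) reached 2 UMIs, a difference of -3.02 points (-5.08 to -0.963). Of these cells 39.7% and 40.2% were in the gate, and the suppressive genes removed 51.9% and 47.1%.

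A gene of the rule lies near the knocked-out locus. Isg15 (chromosome 4, 156199424 to 156200818) is 5.25 Mb from Tnfrsf9. Which chromosome segment came with the knockout allele is not given in the sources used here, so for Isg15 genotype and linked segment cannot be told apart, and the share was also taken without it. By Ifit1 and Ifit3 alone, which lie on chromosome 19, 1.39% of wild-type and 0.714% of knockout Tregs were in the gate (21 and 10 cells). That was a difference of -0.67 points (-1.47 to 0.090). By Isg15 alone the shares were 2.64% and 2.43%, a difference of -0.22 points (-1.37 to 0.959). Thinned to 2000 UMIs per cell, 39 wild-type Tregs (2.74%) and 25 knockout Tregs (1.96%) met the rule, a difference of -0.78 points (-1.95 to 0.386). The intervals of these 3 differences include 0.

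In CD8 T cells of the same libraries the order of the genotypes turned with the threshold and with thinning. At 2 UMIs of the 3 genes, 65 wild-type (6.85%) and 101 knockout CD8 T cells (8.02%) were counted, a difference of 1.17 points (-1.08 to 3.35). At 5 UMIs the counts were 20 (2.11%) and 12 (0.953%), a difference of -1.15 points (-2.35 to -0.133). At 3 UMIs the shares were 4.43% and 3.34%. Among Tregs that met the exclusions the gate held 145 and 130 cells at 1 UMI, 31 and 20 at 3, 14 and 9 at 5, and 7 and 4 at 10.

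**Figure D1:**
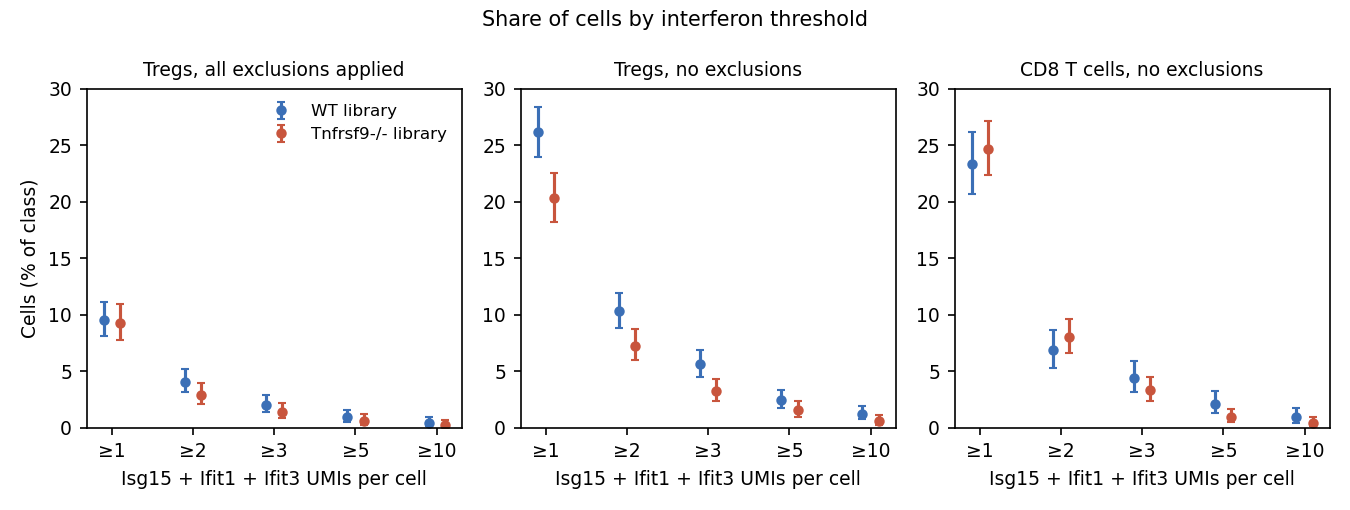
Share of cells, in percent, with at least 1, 2, 3, 5 or 10 UMIs of Isg15, Ifit1 and Ifit3 together, in each library, with bars for 95% Clopper-Pearson intervals. It is given for Tregs that also meet the exclusions and for Tregs without that condition, both as a share of all Tregs, and for CD8 T cells. At the gate's 2 UMIs the Treg shares are 4.10% and 2.93% with the exclusions and 10.3% and 7.28% without them, and those of CD8 T cells are 6.85% and 8.02%.

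Most gate cells stood just above the threshold. The 62 wild-type cells held 274 UMIs of the 3 genes, with a median of 2.5 and at most 21 per cell, and the 41 knockout cells 161, with a median of 2 and at most 16. The 5 cells with most held 32.1% and 39.8% of these UMIs. Isg15, the ubiquitin-like modifier, had a UMI in 90.3% and 92.7% of gate cells. Ifit1, which binds viral RNA, had one in 45.2% and 43.9%, and its relative Ifit3 in 23 of 62 and 9 of 41 cells. In the wild type 24 cells entered on Isg15 UMIs only, 6 on Ifit UMIs only and 32 on both, and in the knockout 20, 3 and 18. Reads of Ifit3 and its near-identical copy Ifit3b may be split, so both values are uncertain.

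How many other interferon-stimulated genes a cell showed went up with its UMIs of the 3 genes. Over 53 genes of conjugation, antiviral effectors, sensors and the PARP group that the rule does not use, cells thinned to 2000 UMIs had a median of 6 genes detected at 0 UMIs of the rule in both libraries. At 1 UMI, just outside the gate, the median was 7 in both (80 wild-type and 88 knockout cells deep enough to thin), and at 2 UMIs, just inside, 8 and 9 (30 and 21 cells). It was 10 and 10 at 3 to 4 UMIs, 11 and 11 at 5 to 9, and 26 and 20.5 at 10 or more, in 7 and 4 cells. The gate as a whole had medians of 9 and 10, and 1 knockout gate cell had none. So the gate joins a few cells with a broad response, up to 30 and 31 of the genes, to many at 2 UMIs whose median is only slightly higher than at 1 UMI. The quartiles at 2 UMIs were 6 and 9.75 in the wild type, against 4 and 9 at 1 UMI. In the knockout they lay farther apart, at 8 and 10 against 5 and 8.

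**Figure D2:**
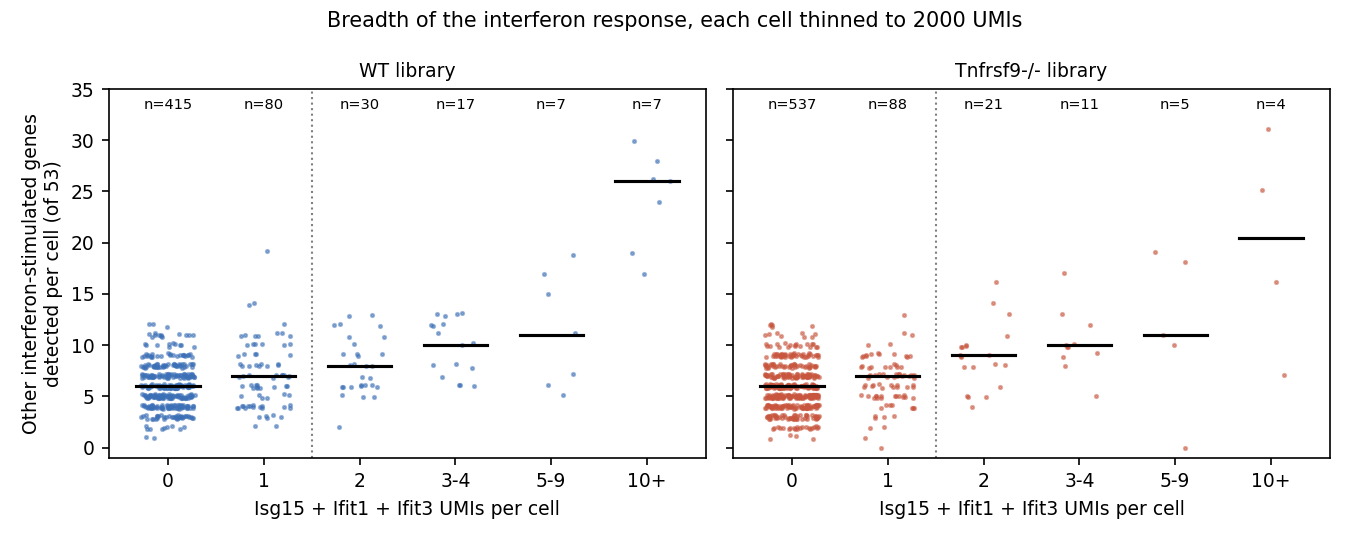
Other interferon-stimulated genes detected per cell (of 53, each cell thinned to 2000 UMIs) by its UMIs of Isg15, Ifit1 and Ifit3, for Tregs that meet the exclusions in each library, with black bars at the medians and a dotted line at the gate. The medians go from 6 at 0 UMIs to 26 (wild type) and 20.5 (knockout, 4 cells) at 10 or more.

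The gate was then compared with all other Tregs within each library, over the 8773 genes with at least 50 UMIs in the Tregs of each. In both libraries 98 genes (1.12%) were at least 2-fold higher in the gate, the 3 rule genes among them. At least 2-fold lower were 195 (2.22%), of which 186 were outside the rule. The lower count depends on the cells that the exclusions remove, and without exclusions it was 28. Of the 10 lists of interferon-stimulated genes, 85 genes outside the rule had these UMIs, 36 were at least 2-fold higher in both libraries and 0 at least 2-fold lower. Their median log2 ratios were 1.05 and 0.90, against -0.08 and 0 over all 8773. A second comparison, matched on the exclusions, set the gate against the 452 and 561 rule-negative Tregs. These were themselves chosen by having no UMI of the 3 rule genes. They were also shallower than the gate cells, with median depths of 3133 and 3428 UMIs. In this comparison 76 of all genes (0.866%) were at least 2-fold higher and 90 (1.03%) at least 2-fold lower. Of the interferon-stimulated genes 26 of 85 were higher, with medians of 0.78 and 0.62. Counts per list below are those at least 2-fold higher in both libraries against all other Tregs.

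In the ISG15 conjugation list 3 of 4 genes were higher. Usp18 (chromosome 6, 121245906 to 121270917) stood at 126 CPM in the wild-type gate and 15.2 in the other wild-type Tregs, and at 120 and 10.0 in the knockout. Its log2 ratios were 3.05 and 3.59, with lower bounds of 2.47 and 2.83, on 35 and 22 UMIs. Uba7, the activating enzyme of the pathway, had 1.36 and 1.05, and Herc6, the ligase that attaches ISG15 in mice, 1.27 and 1.34. Ube2l6, the conjugating enzyme, missed 2-fold in the wild type, with 0.91 and 1.63.

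Antiviral effectors were higher in 2 of 3 IFIT and OAS genes and in 11 of 18 others. Ifit1bl1, an IFIT family gene, had log2 ratios of 3.06 and 3.14 on 16 and 9 UMIs, and Oas1a, which makes the messenger that activates RNase L, 1.90 and 1.20 on 13 and 4. Rtp4 (chromosome 16, 23520291 to 23614222) stood at 277 CPM in the wild-type gate against 44.6 outside it, and at 213 against 35.9 with the knockout, log2 ratios 2.63 (2.26 to 2.99) and 2.57 (2.05 to 3.06). The Schlafen genes Slfn5 (2.10 and 1.96), Slfn8 (1.53 and 1.75) and Slfn1 (1.32 and 1.91) were all higher, as was Xaf1, which promotes apoptosis (1.64 and 2.05). Bst2, or tetherin, which holds budding virus at the cell surface, had 1.33 and 1.46. Samhd1, which depletes nucleotides, had 1.32 and 1.21 against all other Tregs but 0.68 and 0.56 against rule-negative Tregs. Some well-known members were below the 50 UMIs: Mx1 had 12 and 7 UMIs in the gate and Rsad2 11 and 5.

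Among the nucleic acid sensors 5 of 9 were higher. Zbp1, which binds Z-form nucleic acid, stood at 392 against 134 CPM in wild-type cells and at 334 against 119 in knockout cells, log2 ratios 1.55 and 1.48. The RNA helicase Ifih1 (MDA5) had 1.73 and 2.54, Ddx60 1.94 and 2.07, Dhx58 (LGP2) 2.36 and 1.34, and Trim25, the ligase that activates RIG-I, 1.30 and 1.37. Ddx58 (RIG-I itself) had 1.83 and, on 6 UMIs, 0.20. The kinase gene Eif2ak2 (PKR) had -0.24 and 0.18, and Tmem173 (STING), the adaptor of DNA sensing, -0.28 and -0.09. Of the HIN200 genes Ifi203 (1.57 and 1.09), Mndal (1.49 and 1.05) and Pyhin1 (1.41 and 1.18) were higher and Aim2, the inflammasome DNA sensor, was not (-0.21 and -1.09). In the PARP group 5 of 6 were higher, with Parp14 at 1.41 and 1.61 and Parp9 at 1.35 and 1.32, and their partner Dtx3l at 0.88 and 1.37. Against rule-negative Tregs 1 of 4 HIN200 genes and 3 of 6 genes of the PARP group were higher.

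The signalling genes themselves stood less far apart. Of 9 transcription factors 2 were higher, Irf7 (chromosome 7, 141262706 to 141266481) with 2.86 and 1.61 and Stat2 with 1.52 and 1.11. Irf9 had 0.92 and 0.69. Of 10 receptor, kinase and SOCS genes 0 were higher, with medians of 0.45 and 0.18. Ifnar1 had 0.78 and 0.16, Jak1 0.04 and 0.13, and Socs1, the feedback inhibitor, 1.27 and 0.70. Among the 10 interferon genes listed, the gate held 1 and 2 UMIs of Ifng and 1 of Ifnk (the latter with the knockout). Ifna1, Ifna2, Ifna4, Ifna5, Ifnb1, Ifne, Ifnl2 and Ifnl3 had no UMI there.

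GTPase and antigen presentation genes are driven by IFN-gamma as well. Of 13 guanylate-binding and immunity-related GTPase genes 5 were higher, with medians of 1.06 and 1.03. Gbp9 had 1.59 and 1.84, Gbp2 1.23 and 1.28, Gbp8 1.27 and 1.20 and Irgm1 1.79 and 1.03. Of 17 genes of MHC class I and antigen processing 0 were higher, with medians of 0.29 and 0.26. Against rule-negative Tregs the lists lay closer together, with 1 of 13 GTPase genes higher and medians of 0.65 and 0.51, and MHC class I medians of 0.30 and 0.38. H2-D1 had 0.13 and 0.08, B2m 0.06 and 0.25, and the peptide transporter gene Tap1 0.51 and 0.74. H2 genes are counted against a reference of another strain, which may lose NOD reads. Ly6a (Sca-1) had 0.40 and 0.73 against all other Tregs and 1.09 and 1.34 against rule-negative Tregs.

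**Figure D3:**
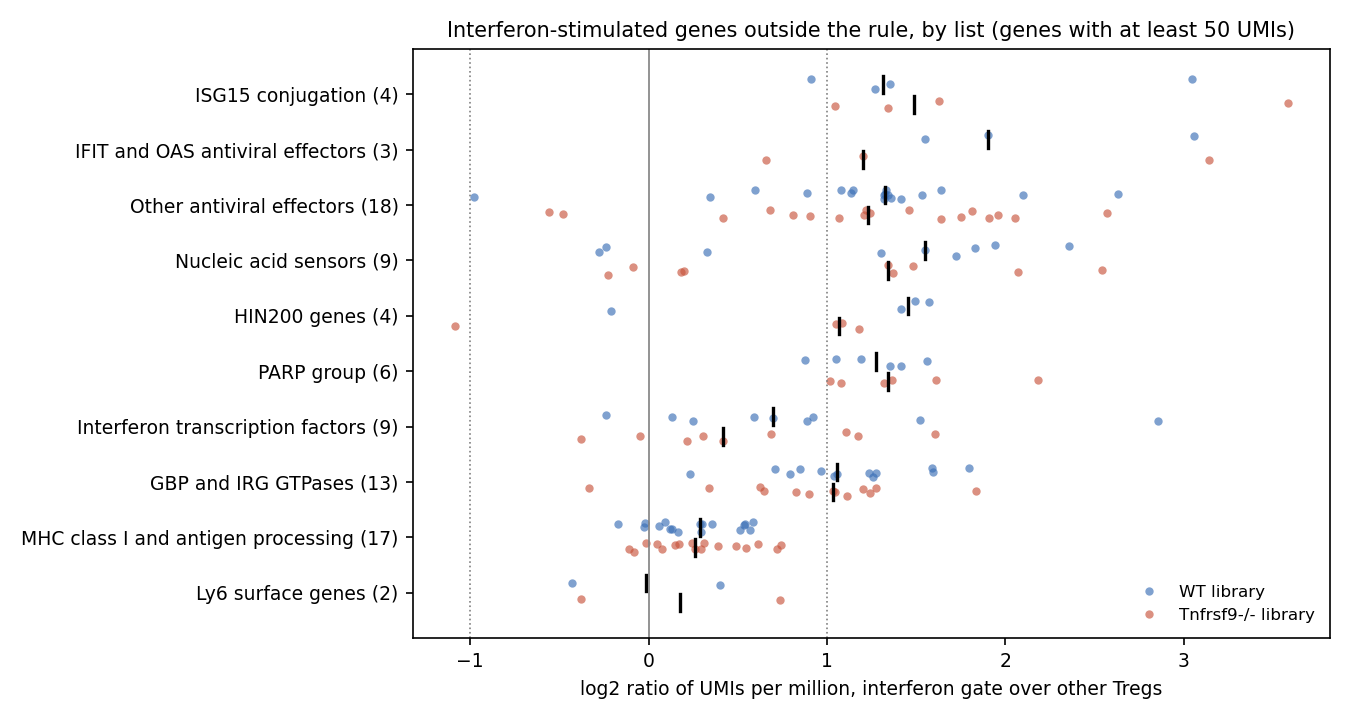
Log2 ratio of CPM, gate over other Tregs, for each tested gene of the 10 lists of interferon-stimulated genes outside the rule, in the wild-type (blue) and knockout (red) libraries, with black bars at the medians and dotted lines at 2-fold. The antiviral, sensor and PARP lists have medians above 1 in both libraries, while the MHC class I list has medians of 0.29 and 0.26.

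Ranked without any list, the 15 genes farthest above the other Tregs in both libraries held 9 members of the lists, and Gm4955 is Ifi206 under another name. The remaining 5 were Rnf213, a large ubiquitin ligase (2.11 and 2.33), BC094916 (2.41 and 1.76), Cybb, a subunit of the phagocyte NADPH oxidase (2.09 and 1.57), Phf11c (2.07 and 1.56) and Dpp4, the surface peptidase CD26 (1.64 and 1.54). For BC094916 no current symbol was found, and it lies on chromosome 1 between the HIN200 genes Gm4955 and Pyhin1. Whether it belongs on the HIN200 list was not settled. Against rule-negative Tregs Dpp4 had 0.49 and 0.66. Cybb rested on 23 and 8 UMIs, of which single cells held 8 and 3. The 10 genes farthest below were led by Stmn1, a tubulin regulator of dividing cells, with 2 and 1 UMIs in the gate and 237 and 256 CPM in the other Tregs. With it stood Rrm2, Asf1b, Smc2, Kif15, Spc24, Mad2l1 and Cdca8, which serve DNA synthesis and mitosis. Since the rule removes dividing cells, their low level is what the rule fixes.

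**Figure D4:**
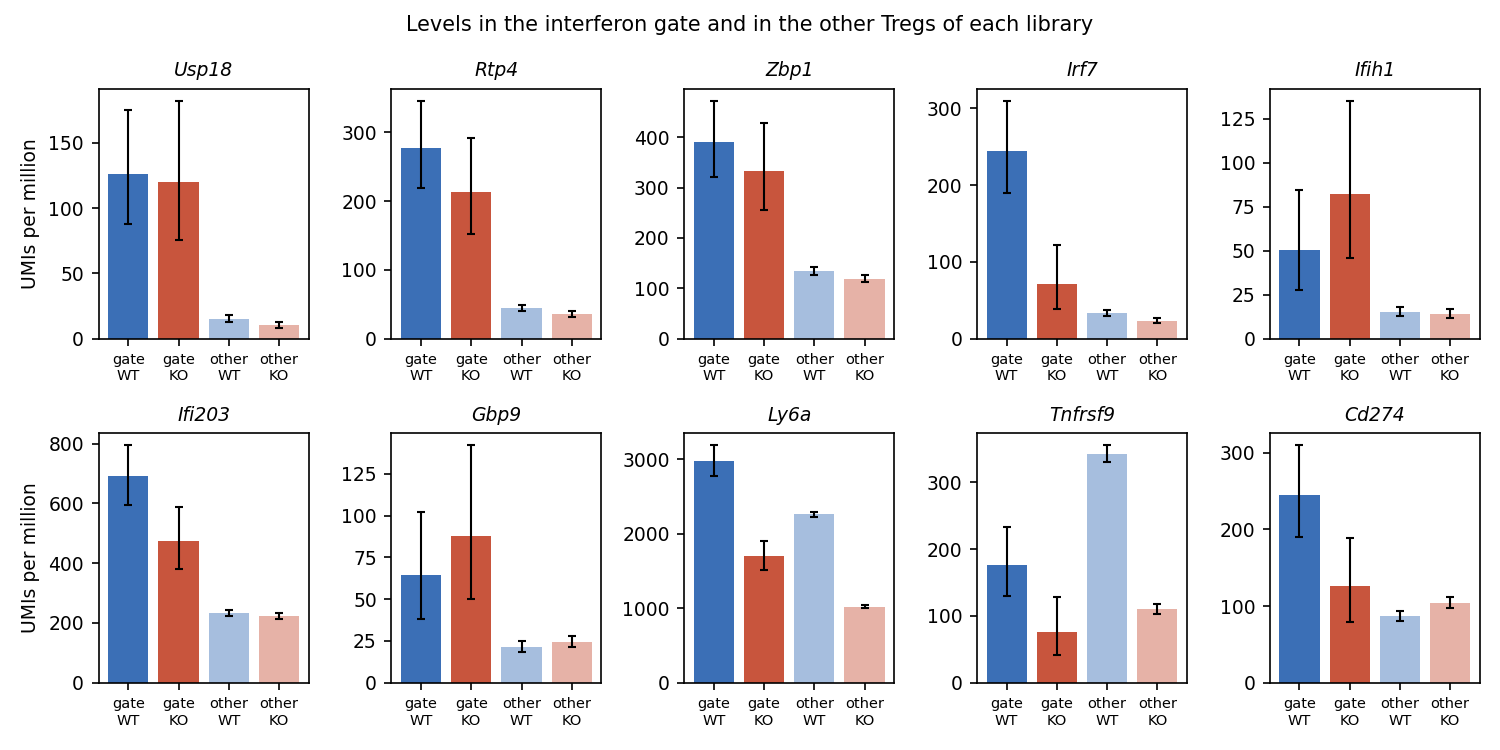
CPM, with 95% Poisson intervals, of 10 genes in the gate and in the other Tregs of each library. Usp18 stands at 126 and 120 in the gate and 15.2 and 10.0 outside it, whereas Tnfrsf9 is lower in the gate than in the other Tregs, at 176 against 343 in the wild type. The other Tregs include cells that the exclusions remove. Against rule-negative Tregs, which met the same exclusions, no such Tnfrsf9 gap was seen.

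For other Treg programmes the counts past 2-fold stand beside 1.12% higher and 2.22% lower over all genes. Against rule-negative Tregs these shares were 0.866% and 1.03%. Nothing is read from the counts. Of 7 genes of naive and recirculating cells 0 were past 2-fold in both libraries. Their medians were 0.67 and 0.45 against all other Tregs and -0.36 and -0.52 against rule-negative Tregs. Of 13 suppressive genes that the rule does not use, Areg, an epidermal growth factor family ligand, was higher (1.81 and 1.21) and Tbx21 (T-bet) lower (-1.33 and -1.12). Against rule-negative Tregs Areg had 2.13 and 2.25, Tbx21 -0.09 and 0.28, and 0 of the 13 were at least 2-fold lower. Areg came from 7 and 5 cells, with 19 of 42 and 8 of 17 UMIs in a single cell each. Ctla4, the inhibitory receptor, had -0.20 and 0.01, and Tgfb1 -0.49 and -0.47. Among 12 genes of recent activation Myc was lower, with 2 UMIs in each library, and 0 were higher. Against rule-negative Tregs 0 of the 12 were at least 2-fold lower in both, and Myc had -1.54 and -0.91. Tnfrsf9 had -0.96 and -0.53 against all other Tregs and -0.00 and 0.22 against rule-negative Tregs. Of 6 memory-like genes and 10 genes of RNA quality and stress 0 were past 2-fold in both libraries.

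Inside the gate knockout was set against wild type over 1464 genes with at least 50 UMIs in the gate cells of both libraries together. In the knockout 26 (1.78%) were at least 2-fold higher and 9 (0.615%) at least 2-fold lower. This split turned with the scaling: trimmed-mean (TMM) factors moved every ratio by -0.17 and gave 7 higher and 18 lower. Of the interferon-stimulated genes 52 had enough UMIs. In the knockout 0 were at least 2-fold higher and 1 at least 2-fold lower, 18 ratios were above 0 and 34 below, and the median was -0.10. Over all genes 757 ratios were above 0 and 707 below. The median over all genes was 0.02, and over the same 52 interferon-stimulated genes in the other Tregs -0.09. The interferon median in the gate turned to 0.06 when Ifit1 and Ifit3 alone chose the cells and to 0.04 with the exclusions at 2 UMIs. It was -0.19 without exclusions, -0.27 with TMM factors, -0.31 at 3 UMIs (37 genes) and -0.56 at 5 UMIs (21 genes).

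The gene past 2-fold was Irf7, the interferon-inducible factor that amplifies the response. It had 68 UMIs in wild-type gate cells and 13 in knockout gate cells, 244 against 71.1 CPM, a log2 ratio of -1.78 (-2.76 to -0.91). In the other Tregs it stood at 33.7 and 23.3 CPM (-0.53), and in CD8 T cells its ratio was -0.21. Of the gate cells, 61.3% had a UMI of Irf7 with wild-type CD137 and 29.3% without it, a difference of -32.0 points (-48.1 to -12.4), and in 15.2% and 10.9% of the other Tregs. With cells thinned to 2000 UMIs the gate shares were 45.9% and 17.1%, a difference of -28.8 points (-43.9 to -10.3). No single cell carried this, as the highest held 7 and 2 UMIs. The difference between the gate and the other Tregs was not tested.

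The other members with at least 50 UMIs in the gate lay nearer between genotypes. Usp18 had -0.06 (-0.90 to 0.75), Rtp4 -0.38 (-0.97 to 0.20) and Zbp1 -0.23 (-0.71 to 0.23), all with intervals that include 0. Isg15 chose the cells, so its ratio of 0.22 (-0.16 to 0.60) is only a description. Ifit1, which also chose the cells, stood at 316 and 191 CPM (-0.72, -1.33 to -0.14), but 56 of its 88 wild-type and 16 of its 35 knockout UMIs were in the cells with 10 or more UMIs of the rule. In the remaining gate cells it stood at 126 and 117 CPM, and the share of gate cells with a UMI differed by -1.26 points (-19.9 to 17.8). Ifit3, also a gene of the rule, had -0.62 (-1.43 to 0.15). Ifi203 had -0.54 (-0.92 to -0.16) and Ifi35 -0.72 (-1.43 to -0.04). Slfn1, with 22 and 27 UMIs and so below that minimum of 50, ran the other way with 0.90 (0.03 to 1.78). Among members below 50 UMIs, picked after their values were seen, those lower in the knockout included Ddx58 with 27 and 6 UMIs (-1.56), Dhx58 with 18 and 3 (-1.98), Oasl2 with 17 and 2, and Ifit3b with 15 and 1. Herc6 with 21 and 24 UMIs (0.80), Daxx with 26 and 23 (0.43) and Ifi204 with 3 and 6 (1.61, -0.62 to 4.23) ran the other way.

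Some genes were lower in knockout cells both inside and outside the gate. Ly6a had -0.81 in the gate and -1.14 in the other Tregs, but 0.04 in CD8 T cells. Ifi27l2a, a mitochondrial interferon-induced gene, had -0.50 in the gate, -0.43 in the other Tregs and -0.50 in CD8 T cells. Serpina3g, a serine protease inhibitor of activated lymphocytes, is on none of the interferon lists and had the lowest ratio of the genes compared, with 55 and 10 UMIs (-1.85, -2.99 to -0.87), and had -1.05 in the other Tregs. Of its 55 UMIs a single cell held 15. Under the alternatives run, the Serpina3g ratio in the gate lay between -4.19 and -0.22.

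**Figure D5:**
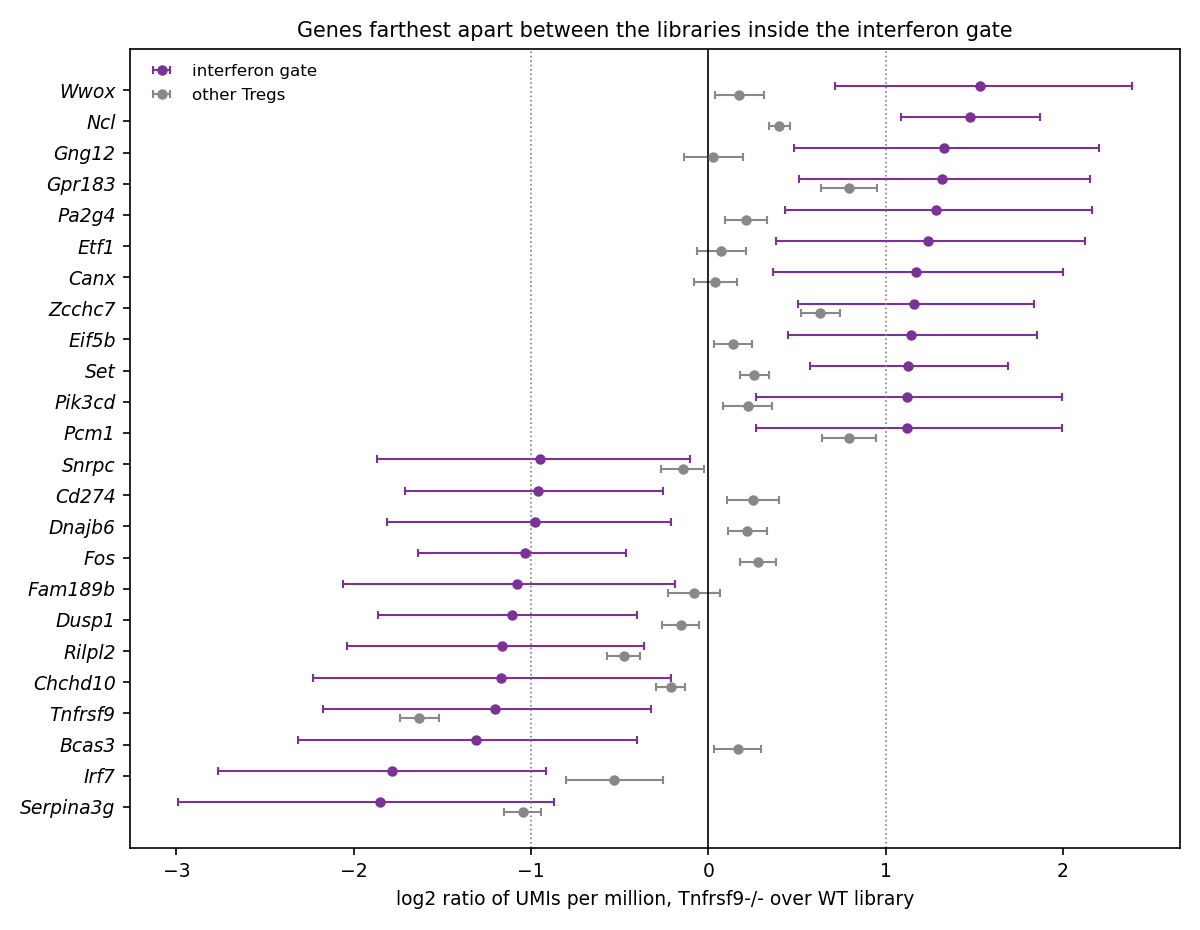
Log2 ratio of CPM, knockout over wild type, for the 12 highest and 12 lowest genes in the gate, with 95% exact conditional intervals, in the gate (purple) and in the other Tregs (grey). Irf7 is at -1.78 in the gate and -0.53 in the other Tregs.

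Of the genes compared, the others farthest below the wild type in the knockout gate cells, beside Tnfrsf9, were Bcas3 (-1.31) and Chchd10 (-1.17). Next came Rilpl2 (-1.17), Dusp1 (-1.11), Fam189b (-1.08), Fos (-1.04), Dnajb6 (-0.98), Cd274 (-0.96) and Snrpc (-0.95). Cd274 encodes PD-L1, an interferon-inducible inhibitory ligand, and stood at 244 CPM in the wild-type gate, 126 in the knockout gate, and 87.3 and 104 in the other Tregs. Fos and Dusp1 are immediate early genes. Nr4a1, an immediate early gene of T cell receptor signalling that had too few UMIs for that comparison, had 40 and 4 UMIs in the gate.

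Of the genes compared, those farthest above the wild type in the knockout gate cells rested in part on single cells. They were Wwox (1.53), Ncl (1.47), Gng12 (1.33), Gpr183 (1.32), Pa2g4 (1.28), Etf1 (1.24), Canx (1.17), Zcchc7 (1.16), Eif5b (1.14), Set (1.13), Pik3cd (1.12) and Pcm1 (1.12). Ncl, Pa2g4 and Eif5b take part in ribosome assembly, growth or translation. Pik3cd (chromosome 4, 149649168 to 149702571) lies nearer to Tnfrsf9 than Isg15 does. For Pik3cd, too, genotype and linked segment cannot be told apart. A pair of knockout gate cells with 10821 and 11466 UMIs, deeper than the deepest wild-type gate cell at 9200, held 73 of 157 Ncl, 35 of 69 Set and 23 of 32 Pa2g4 UMIs. Without these 2 cells the log2 ratios were 0.76 for Ncl, 0.30 for Set, 0.72 (-0.27 to 1.70) for Etf1 and -0.36 for Pa2g4, while that of Irf7 was -1.71. Gpr183, a chemotactic receptor for oxysterols, had 0 UMIs in these cells. Each of the 12 genes fell below 2-fold under at least 1 alternative. The lowest ratio was that of Pa2g4 (-0.36), followed by 0 for Gpr183, 0.13 for Gng12, 0.17 for Wwox and 0.20 for Pik3cd. Gzmb, encoding granzyme B, had 1 and 31 UMIs in the gate, 28 of them in 1 knockout cell.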

How the data were processed

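The authors deposited, per library, a matrix of raw UMI counts per gene and cell from the Chromium 3' v2 assay. The submitters' processing notes name Cell Ranger 7.0.0 and the mm10 build, and whether intronic reads were counted is not given in the sources used here. No column lacked a sample. A cell was kept if it had 200 to 5000 genes and no more than 20% of its UMIs from mitochondrial genes, and no doublet caller was run. Classes followed the stated UMI rules, with CD8 T cells defined by a Cd8a or Cd8b1 UMI, no Cd4 or Foxp3 UMI and at least 3 CD3 UMIs. UMIs were summed per class and library, and ratios of the resulting CPM were given exact conditional intervals. Shares have Clopper-Pearson and differences of shares Newcombe intervals. A count of 0 was set to 3. Where that pointed away from the empty group, or where both counts were 3 or lower, the ratio was set to 0.

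The members of the gate and all gene lists were chosen with earlier results of these data known. Of 116 listed interferon-stimulated genes 108 could be used and 105 were outside the rule. Genes named beyond the lists were the 15 highest and 10 lowest between the gate and the other Tregs, by the smaller of both libraries' ratios and without the genes of the rule. The 12 highest and 12 lowest between genotypes in the gate were added. The rows given for Nr4a1, Gzmb, Ins1, Ins2 and the sparse interferon-stimulated genes were picked after their values were seen. The study's own tests over cells were not repeated, since cells are not replicates. Gene positions came from GENCODE vM21 (27645 of 27998 identifiers matched) and promoters from a RefSeq table. Python 3.11.15, NumPy 2.4.6, SciPy 1.17.1 and pandas 2.3.3 were used, with R 4.3.3 and edgeR 4.0.16 for TMM factors only. The interval formulas were tested on simulated counts, and the assignment of classes was not. Alternatives covered thresholds, exclusions, thinning, cell limits, scaling and gene minimums. A limit of 10 rule UMIs, the share among Tregs that met the exclusions and the removal of the 2 deepest knockout gate cells were chosen after seeing the data.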

Additional observations from a re-analysis of the deposited data

Results flagged for a closer look

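For 4 genes the knockout stood below the wild type inside the gate and above it in the other Tregs, with both intervals clear of 0. The difference between the gate and the other Tregs was not tested, and the genes were among those picked for their low ratio in the gate. Bcas3 had 49 and 13 UMIs in the wild-type and knockout gate cells, a log2 ratio of -1.31 (-2.32 to -0.40), and 0.17 (0.03 to 0.30) in the other Tregs. Cd274, encoding PD-L1, had 68 and 23 UMIs, -0.96 (-1.71 to -0.26) in the gate and 0.25 (0.11 to 0.40) in the other Tregs. Dnajb6, a heat shock cochaperone, had 57 and 19 UMIs, -0.98 (-1.81 to -0.21) and 0.22 (0.11 to 0.33). Fos, an immediate early factor, had 106 and 34 UMIs, -1.04 (-1.64 to -0.47) and 0.28 (0.18 to 0.38). Dnajb6 turned to 0.36 in the gate by Ifit1 and Ifit3 alone. Cd274 had -0.18 when the exclusions were left out, and Fos -0.01 with thinned cells.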

How the results depend on the processing

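Of 200 recomputed values of the comparisons 140 stayed within tolerance and 60 moved, and of 1282 values of named genes 1040 stayed, 226 moved, and 16 changed direction where the reported interval was clear of 0. Tolerance was the reported 95% interval or, where none exists, a factor of 1.5 for counts of genes and for the ratio behind a median. Some differences near 0 changed sign. That of CD8 T cells was -0.39 points thinned. The median of the interferon-stimulated genes between genotypes in the gate (-0.10) was 0.06 by Ifit1 and Ifit3 and 0.04 with exclusions at 2 UMIs. This median was lower at 3 and 5 UMIs (-0.31 and -0.56), with TMM factors (-0.27) and without exclusions (-0.19). The share of wild-type Tregs in the gate (4.10%) was 9.58%, 2.05% and 0.925% at 1, 3 and 5 UMIs, 1.39% by Ifit1 and Ifit3, 2.64% by Isg15, 10.3% without exclusions, 2.77% with exclusions at 2 UMIs, 2.74% thinned, and 10.4% of the Tregs that met the exclusions. The knockout share (2.93%) was 9.28%, 1.43% and 0.642% at 1, 3 and 5 UMIs, 0.714% by Ifit1 and Ifit3, 7.28% without exclusions, 1.96% thinned and 5.93% of the Tregs that met the exclusions. Their difference (-1.17 points) was -3.02 without exclusions and -4.45 among those Tregs. In CD8 T cells the wild-type share (6.85%) was 23.4% and 4.43% at 1 and 3 UMIs and 2.26% thinned, the knockout share (8.02%) 24.7%, 3.34% and 1.88%, and their difference (1.17 points) -1.09 at 3 UMIs. The median of the interferon-stimulated genes in the wild type (1.05) was 1.77 at 5 UMIs, and the count past 2-fold (36) was 13 at 1 UMI. Tnfrsf9 in the gate (-1.20) had -0.19 at 5 UMIs and -0.0025 with exclusions at 2 UMIs.

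Between genotypes in the gate, genes higher and lower in the knockout (26 and 9) were 47 and 18 at 1 UMI, 16 and 14 by Isg15, 54 and 41 without exclusions, 12 and 5 with exclusions at 2 UMIs, 2 and 2 thinned, 7 and 18 with TMM factors and 17 and 16 without mitochondrial and ribosomal genes in the totals. They were 234 and 96 with a minimum of 20 UMIs and 990 and 630 with none. By Ifit1 and Ifit3, 14 were higher, and at 5 UMIs 14 were lower. Between the gate and the other Tregs, genes higher in both libraries (98) were 43 at 1 UMI, 246 at 5, 215 by Ifit1 and Ifit3, 47 without exclusions, 156 with a minimum of 20 UMIs and 271 with none. Genes lower (195) were 95 at 5 UMIs, 114 by Ifit1 and Ifit3, 28 without exclusions, 107 thinned and 90 against rule-negative Tregs. Fewer cells or fewer UMIs per gene widen ratios by construction, and the cause of the other moves was not tested. Irf7 lay between -2.33 and -1.20 under every alternative run.

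Direction changed by Ifit1 and Ifit3 for Rilpl2 (0.0013) and Dnajb6 (0.36). Without exclusions it changed for 2810417H13Rik (0.21 in the knockout), Spc24 (0.10 and 0.16), Mad2l1 (0.30 in the wild type) and Cdca8 (0.14 and 0.32). With thinned cells it changed for Asf1b (0.67) and Kif15 (0.093), both in the knockout, and for Chchd10 (0.18). Against rule-negative Tregs it changed for Asf1b and Kif15 (0.74 each, knockout) and Cdca8 (1.18 and 1.23), and without the 2 deepest knockout gate cells for Pa2g4 (-0.36). No paired analysis was possible because each genotype had 1 library and the labels give no replicate numbers.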
